A study of Homo sapiens with 6 samples.

Results

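The expression of 8 liver-enriched transcription factors, HNF4A, FOXA1, FOXA2, FOXA3, CEBPA, CEBPB, NR5A2 and PROX1, was examined in Huh7 cells that overexpressed the circular RNA hsa_circ_0098181. The 8 genes were chosen by name out of 50868 genes in the table, and all 8 passed the filter on low counts that left 15055 genes for testing. Huh7 is a cell line established from a human liver tumour, which still expresses many hepatocyte genes. hsa_circ_0098181 is a closed RNA loop made from exons of its host gene SOX5. Huh7 cells received either a plasmid that expresses hsa_circ_0098181 (3 libraries, called the circRNA group here) or the control plasmid (3 libraries), both delivered with the lipid reagent Lipofectamine 2000. Total RNA was taken 48 hours later, so that all 6 libraries share the cell line, the transfection and the time point. The labels do not say that replicates came from separate cultures, and p-values measure only the spread between these libraries, which may be technical.

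Liver-enriched transcription factors act together on the promoters and enhancers of hepatocyte genes, and many of them also regulate one another. The FOXA proteins are pioneer factors that open closed chromatin through a forkhead domain. HNF4A and NR5A2 are nuclear receptors, which bind short hormone-response-like elements and recruit cofactors. CEBPA and CEBPB are basic leucine zipper proteins, CEBPA being tied to metabolic maturity and cell-cycle exit of hepatocytes and CEBPB to the acute-phase response and regeneration. PROX1 is a homeodomain protein that works in liver largely as a corepressor of HNF4A and NR5A2.

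The plasmid was visible in the libraries. Levels are given as CPM, gene counts scaled to a common library size by the TMM method. SOX5 was at 1905, 2396 and 2012 CPM in the circRNA libraries and at 41.8, 34.4 and 31.3 CPM in the controls (58.8-fold higher, adjusted p = 2.6e-06, edgeR), a count that cannot tell circular from linear SOX5 RNA. All 6 hepatocyte markers (ALB, APOA1, TTR, SERPINA1, TF, AFP) were detected in every library, with a summed level of 22036 to 23330 CPM in the circRNA group and 19740 to 23810 CPM in the controls. Over the 6 libraries, summed fibroblast and stellate markers were at 6.28 to 11.2 CPM (3 of 4 under 1 CPM throughout) and leukocyte markers at 7.92 to 13.8 CPM (1 of 3 under 1 CPM). Cholangiocyte markers summed to 309.8 to 356 CPM, which came from KRT19, SOX9 and EPCAM, with KRT7 under 1 CPM. Endothelial markers summed to 46.9 to 59.1 CPM, nearly all of it from PECAM1. The other 2 of 3 were under 1 CPM, with CDH5 at 0 in every library. Library totals ran from 11130902 to 14138262 gene counts. Control replicate 1 was the shallowest, had the highest mitochondrial share (9.29% of counts against 6.32% to 7.04% in the others), and held the highest or the lowest value of 53.1% of all genes tested. It also read long genes higher and short genes lower than the other libraries did. Its median log2 deviation from the gene means was 0.103 for genes with a longest transcript of at least 5146 bases and -0.12 for those of at most 2078 bases. In circRNA replicate 1 the same medians were -0.103 and 0.113. The values of the 8 genes are therefore given for each library, and fold changes also with the dependence of each library on length and GC content fitted and removed.

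None of the 8 transcription factors passed an adjusted p of 0.05 (edgeR quasi-likelihood test, Benjamini-Hochberg over 15055 genes), and 0.0399% of all genes tested did so (6 genes). DESeq2 also called none of the 8, beside 0.186% of the genes it gave an adjusted p, and limma on log2(FPKM + 1) called none, beside 0.0426% of its genes. At an unadjusted p under 0.05, CEBPA and CEBPB stood higher and PROX1 lower in the circRNA group. Of all genes tested, 2.42% were higher at that level and 3.08% were lower. DESeq2 put 4 of the 8 under an unadjusted p of 0.05 (CEBPA, CEBPB, PROX1 and HNF4A), beside 4.39% of its genes in either direction. With limma 3 were under it (CEBPA, CEBPB and FOXA3, but not PROX1), beside 6.03%. CEBPA, CEBPB and FOXA3 were the only 3 of the 8 whose circRNA values all lay above their control values, which 6.4% of all genes did. None had all circRNA values below the controls, as 6.5% of all genes had. The median log2 fold change of the 8 was -0.011 (-0.08 to 0.058 when 1 library was left out), and that of all genes tested was 0.0023. Their combined level was 778 to 801 CPM in the circRNA group and 774 to 859 CPM in the controls, so that the ranges of the groups overlapped.

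**Figure D1:**
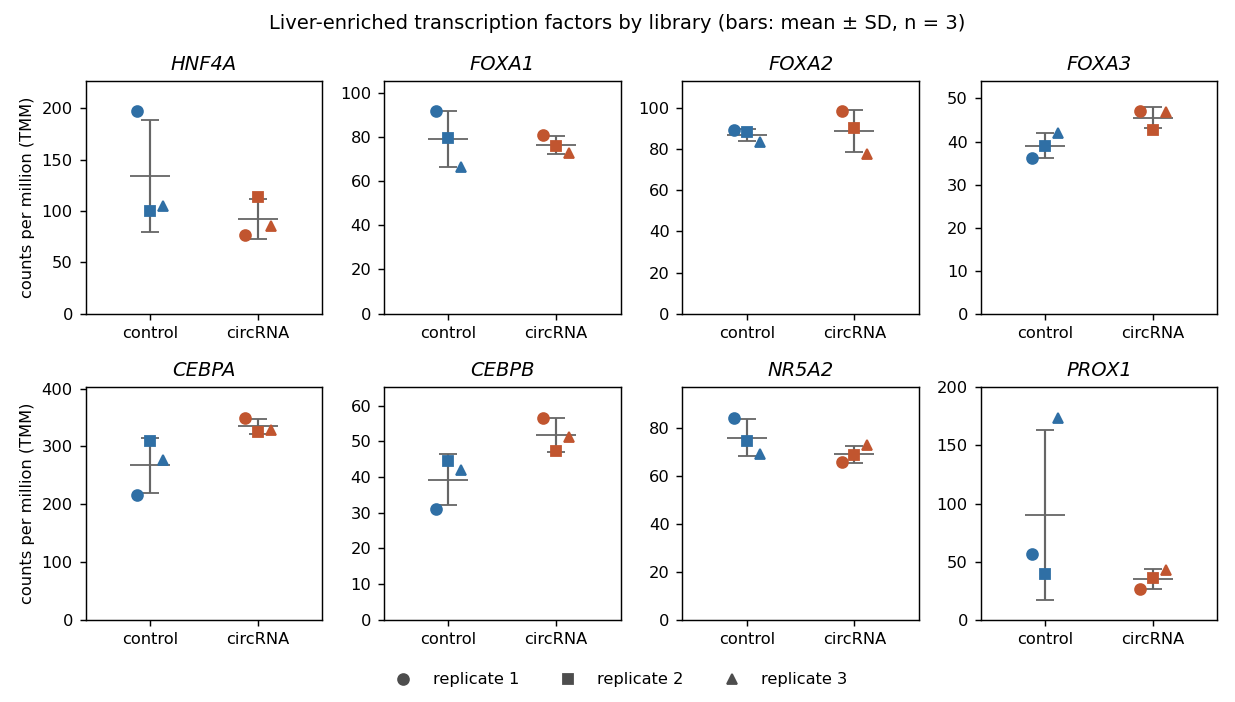
CPM (vertical axis, from 0) of each of the 8 genes in the 3 control-plasmid and the 3 hsa_circ_0098181-plasmid (circRNA) libraries, with symbols for replicate numbers and grey bars for mean ± SD. HNF4A in control replicate 1 (197 CPM) and PROX1 in control replicate 3 (174 CPM) stand far above the other 5 libraries of the same gene, while the groups of CEBPA, CEBPB and FOXA3 do not overlap.

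Compared per length of gene, the 8 factors spread over more than an order of magnitude. CEBPA (chr19:33299934-33302564, minus strand, a single-exon gene; GRCh38) was highest, at 102 ± 18.0 CPM per kilobase of merged exons in the controls and 127 ± 5.21 in the circRNA group (SD, n = 3). FOXA2 (chr20:22581005-22585455, minus strand) followed at 33.4 ± 1.14 and 34.1 ± 3.98 CPM per kilobase. These levels were clear of their neighbours, since the lowest CEBPA value (82.0) exceeded the highest FOXA2 value (37.7), and the lowest FOXA2 value (29.9) exceeded the highest CEBPB value (29). CEBPB (20.1 ± 3.65 in the controls), FOXA1 (19.9 ± 3.17), HNF4A (18.3 ± 7.48) and FOXA3 (17.8 ± 1.32) came next, and their control values overlapped. In the circRNA group CEBPB (24.2 to 29 CPM per kilobase) lay above FOXA1 and FOXA3 (18.2 to 21.4), which overlapped, and HNF4A (10.4 to 15.5) lay below them. PROX1 (10.1 ± 8.23) and NR5A2 (10.1 ± 1.03) had the same mean in the controls. PROX1 was above NR5A2 in 1 library only, control replicate 3. The order depends on the length used. The deposited FPKM divide by the same length for CEBPA and CEBPB but by longer ones for the other 6 genes, such as 14932 bases for HNF4A against 7311 merged exon bases here. They place FOXA3 (15.3 ± 1.30 FPKM in the controls) above FOXA1 (12.3 ± 1.83) and HNF4A (8.84 ± 3.47).

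**Figure D2:**
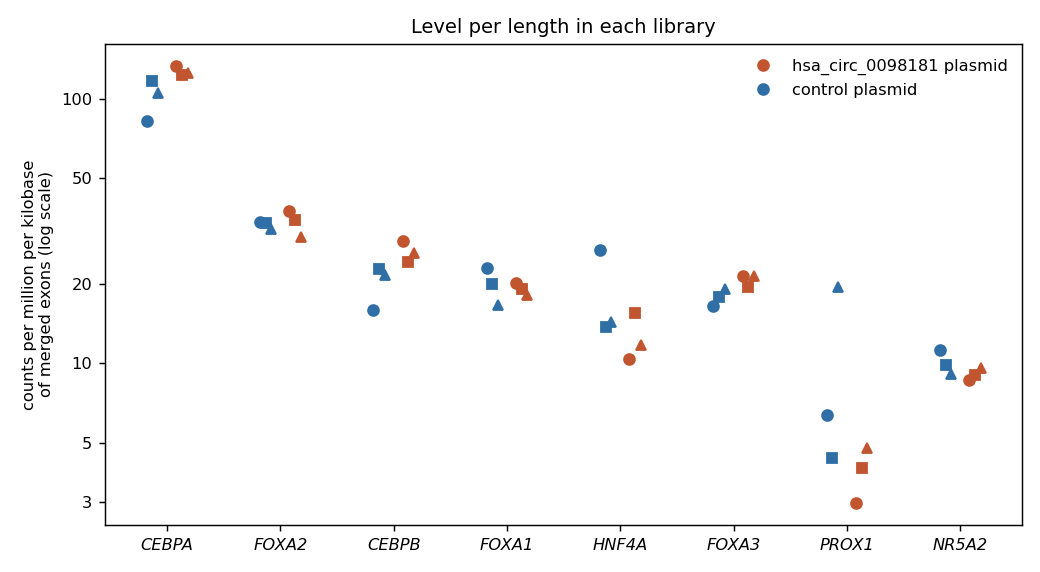
Level of each gene in CPM per kilobase of merged exons (vertical axis, log scale) in the control (blue) and circRNA (orange) libraries, with circles, squares and triangles for replicates 1, 2 and 3. CEBPA lies between 82.0 and 133 and FOXA2 between 29.9 and 37.7 in all 6 libraries, and only PROX1 and HNF4A have a library that stands apart.

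HNF4A (ENSG00000101076, chr20:44355700-44434596, plus strand), the nuclear receptor that governs a large part of the hepatocyte programme, was at 76.2, 114 and 85.6 CPM in the circRNA libraries and at 197, 100.1 and 105 CPM in the controls. The high value of control replicate 1 set the group difference, and without it the remaining controls fell inside the circRNA range. The fitted log2 fold change was -0.54 ± 0.27 (SE; 95% confidence interval -1.16 to 0.07; unadjusted p = 0.0746, adjusted p = 0.797, edgeR). Without control replicate 1 it was -0.16 (unadjusted p = 0.374, adjusted p = 0.959, edgeR). The control values varied by 40.8% (coefficient of variation), where counting error alone would give 2.56%. HNF4A was 1.73 times higher in control replicate 1 than in the next library. At least a 1.5-fold excess of 1 library over the next was seen in 0.924% of the 9953 genes with a mean of at least 10 CPM. With length and GC content removed the log2 fold change was -0.48 ± 0.25. HNF4A-AS1 (ENSG00000229005), which runs antisense within the HNF4A locus and shares no exon bases with it, had 12 to 22 counts per library and a log2 fold change of 0.004 ± 0.34.

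The genes whose levels followed HNF4A most closely over the 6 libraries, among 9952 others with a mean of at least 10 CPM, were SIPA1L3 (Pearson r = 0.9987), NFIC (r = 0.9962) and PPIL2 (r = 0.9953), each a description over points that share depth and library composition. All 3 were highest in control replicate 1 and lowest in circRNA replicate 1. Their swing was smaller than that of HNF4A. SIPA1L3 was at 142 CPM in control replicate 1 and at 107 to 122 CPM in the others. Over the 5 libraries without control replicate 1 the correlations were 0.99, 0.98 and 0.98.

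NR5A2 (ENSG00000116833, chr1:200027602-200177424, plus strand), the nuclear receptor also known as LRH-1 that regulates bile acid and cholesterol genes, showed the smallest spread over libraries next to FOXA2. It was at 65.6, 68.6 and 72.8 CPM with the circRNA plasmid and at 84.3, 74.6 and 69.0 CPM with the control plasmid. The groups overlapped, and the highest value again was that of control replicate 1. The log2 fold change was -0.14 ± 0.10 (95% confidence interval -0.38 to 0.10, adjusted p = 0.805, edgeR), and -0.08 ± 0.09 with length and GC content removed. Without control replicate 1 it was -0.06. The interval reaches from 0.77-fold to 1.07-fold.

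PROX1 (ENSG00000117707, chr1:213983181-214041502, plus strand), the homeodomain corepressor, had the largest negative fold change of the 8. It was at 26.5, 36.1 and 42.9 CPM in the circRNA libraries and at 57.0, 39.1 and 174 CPM in the controls. Control replicate 3 alone lay far from the rest, and control replicate 2 lay inside the circRNA range. The log2 fold change was -1.36 ± 0.50 (95% confidence interval -2.50 to -0.22; unadjusted p = 0.0248, adjusted p = 0.797, edgeR). Without control replicate 3 it was -0.45 (unadjusted p = 0.0911, adjusted p = 0.669, edgeR), and on the log2(FPKM + 1) scale, which understates low genes, it was -0.79. The value of control replicate 3 was 3.06 times the next highest. An excess of at least 3-fold of 1 library over the next was found in 6 of 9953 genes (0.0603%), PROX1 among them. PROX1 had 2120 counts in that library and 459 in control replicate 2, and the control values varied by 81.5% where counting error alone would give 3.06%. PROX1-AS1 (ENSG00000230461), which shares 171 exon bases with PROX1 on the opposite strand, did not share the excess. It had 47, 69 and 50 counts in the controls and 55, 63 and 62 counts in the circRNA libraries (log2 fold change -0.10 ± 0.22, adjusted p = 0.93, edgeR). Control replicate 3 gave no such excess for the other 7 factors, and held the lowest FOXA1 value.

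The FOXA factors open chromatin at liver enhancers and can replace one another in part. They were among the steadiest of the 8, with the highest library 1.26 to 1.38 times the lowest. FOXA1 (ENSG00000129514, chr14:37589984-37596059, minus strand) was at 80.6, 75.9 and 72.6 CPM in the circRNA group and at 91.5, 79.6 and 66.2 CPM in the controls, with a log2 fold change of -0.05 ± 0.13 (adjusted p = 0.939, edgeR). The circRNA values all lay within the control range. FOXA2 was at 98.3, 90.3 and 77.7 CPM and at 89.1, 88.2 and 83.6 CPM, with a log2 fold change of 0.03 ± 0.11 (adjusted p = 0.962, edgeR). Here the control values all lay within the circRNA range. Neither sign was stable. FOXA1 turned to 0.07 without control replicate 1, and FOXA2 to -0.05 without circRNA replicate 1 and to -0.03 with length and GC content removed. The 95% confidence intervals reached from 0.79-fold to 1.18-fold for FOXA1 and from 0.86-fold to 1.21-fold for FOXA2. FOXA3 (ENSG00000170608, chr19:45863989-45873797, plus strand), which is expressed in adult liver beside FOXA1 and FOXA2, was at 47.0, 42.7 and 46.8 CPM with the circRNA plasmid. It was at 36.1, 39.0 and 41.9 CPM with the control plasmid, so that the groups did not overlap, though the nearest values (42.7 and 41.9) differed by less than the counting error. Its log2 fold change was 0.22 ± 0.10 (95% confidence interval -0.01 to 0.46; unadjusted p = 0.0614, adjusted p = 0.797, edgeR), and 0.13 ± 0.09 with length and GC content removed.

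The make-up of the FOXA family does not depend on the factor by which each library is scaled. The shares were not corrected for the dependence of libraries on length and GC content. FOXA2 gave 47.5, 47.4 and 43.0% of FOXA reads per kilobase in the circRNA libraries and 46.5, 47.3 and 47.3% in the controls. FOXA3 gave 27.0, 26.6 and 30.7% against 22.3, 24.8 and 28.2%, a mean difference of 3.01 percentage points (p = 0.3, exact two-sided permutation test). FOXA1 made up the rest, at 25.9 ± 0.398% and 27.9 ± 3.33% (SD, n = 3; p = 0.4, exact two-sided permutation test). Without control replicate 1 the FOXA1 difference went from -1.95 to -0.29 percentage points and the FOXA3 difference to 1.62. Without circRNA replicate 3 the FOXA3 difference was 1.69, and without control replicate 3 it was 4.53 and that of FOXA1 -3.62. The groups overlapped in each share, and 3 against 3 libraries cannot give a p below 0.1. With the deposited FPKM the FOXA2 share was larger, at 52.4% and 53.9%.

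How reads that match both FOXA1 and FOXA2 were counted is not given in the sources used here, so the sequence they share bears on these levels. The longest run common to the reading frames of FOXA1 and FOXA2 was 48 bases. It starts at base 508 of the FOXA1 frame (chr14:37592229-37592276, minus strand, GRCh38) and at base 493 of the FOXA2 frame (chr20:22582702-22582749, minus strand), and codes for part of the forkhead domain.
FOXA1 and FOXA2 shared run: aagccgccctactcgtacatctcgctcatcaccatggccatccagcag
Over whole transcripts of GENCODE 29, 1.6% of the FOXA1 stretches of 31 bases and 2.49% of the FOXA2 stretches were shared between these genes. FOXA3 shared no such stretch with any gene. The longest run that CEBPA (chr19:33301503-33301529, minus strand) and CEBPB (chr20:50191886-50191912, plus strand) have in common was 27 bases and lies in the basic region that contacts DNA.
CEBPA and CEBPB shared run: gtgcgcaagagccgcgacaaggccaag
CEBPA overlaps antisense genes more widely, and 39.79% of its stretches also occur in another gene, in ENSG00000267580 and ENSG00000267727 on the opposite strand. In CEBPB 11.63% do so, mostly in CEBPB-AS1.

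CEBPA and CEBPB were both higher with the circRNA plasmid, by a margin that did not pass the adjusted threshold. CEBPA (ENSG00000245848) was at 350.1, 325 and 329 CPM in the circRNA libraries and at 216, 309 and 277 CPM in the controls. The groups did not overlap, and the lowest value was that of control replicate 1. The log2 fold change was 0.32 ± 0.13 (1.25-fold, 95% confidence interval 1.02-fold to 1.54-fold; unadjusted p = 0.0368, adjusted p = 0.797, edgeR). CEBPB (ENSG00000172216, chr20:50190734-50192689, plus strand, a single-exon gene) was at 56.7, 47.2 and 51.3 CPM against 31.1, 44.5 and 42.1 CPM. Its log2 fold change was 0.40 ± 0.15 (1.32-fold, 95% confidence interval 1.04-fold to 1.67-fold; unadjusted p = 0.0266, adjusted p = 0.797, edgeR). Control replicate 1 again held the lowest value. Without it the log2 fold changes were 0.19 for CEBPA (unadjusted p = 0.0561, edgeR) and 0.26 for CEBPB (unadjusted p = 0.0517, edgeR). With length and GC content removed they were 0.21 ± 0.09 (unadjusted p = 0.054, edgeR) and 0.26 ± 0.11 (unadjusted p = 0.0447, edgeR). Both genes are rich in GC, with 65.9% in the CEBPA and 66.2% in the CEBPB transcript. CEBPB (1956 bases) is also among the genes of at most 2078 bases, and CEBPA (2631 bases) is not. Control replicate 1 read GC-rich genes lower (median log2 deviation -0.09 in the upper quartile of GC content). The part of this trend in the difference was not tested beyond the corrected values.

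CEBPA and CEBPB bind the same DNA element and can form dimers with each other, so that their balance was also compared. The log2 ratio of their counts was 2.63, 2.78 and 2.68 in the circRNA libraries and 2.79, 2.80 and 2.72 in the controls, a difference of -0.07 (p = 0.2, exact two-sided permutation test). The groups overlapped. Control replicate 1, the lowest library for both genes, had a ratio like that of control replicate 2.

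The non-coding neighbours of CEBPA, CEBPB and FOXA2 were read next. CEBPA-AS1 (ENSG00000267296), a divergent non-coding RNA, had 153, 196 and 140 counts in the circRNA libraries and 111, 118 and 88 counts in the controls, with a log2 fold change of 0.39 ± 0.19 (adjusted p = 0.797, edgeR). Its scaled values were all higher in the circRNA group than in the controls, as were those of 6.4% of all genes tested. CEBPB-AS1, which shares 231 exon bases with CEBPB, had 3 to 6 counts per library and was not tested. The genes antisense to CEBPA (ENSG00000267580 and ENSG00000267727) had at most 12 counts in a library, against 2338 to 4946 for CEBPA. LINC00261, the long non-coding RNA beside FOXA2, had 1525 to 2077 counts, and FOXA2 had 962 to 1388. These counts are not divided by length and do not rank the 2 levels. Its log2 fold change was 0.09 ± 0.08 (adjusted p = 0.832, edgeR), and its scaled values also were all higher in the circRNA group.

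**Figure D3:**
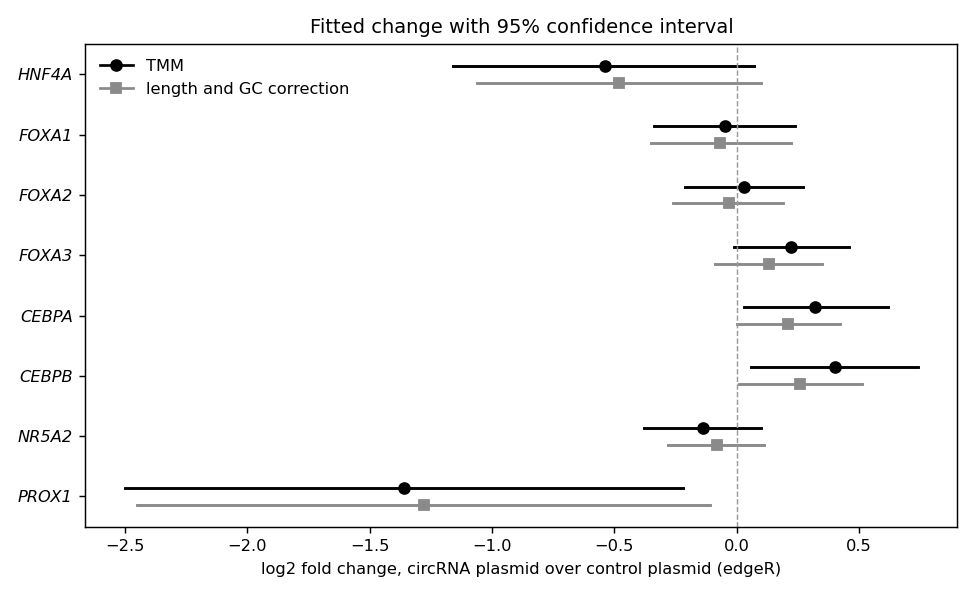
Fitted log2 fold change (horizontal axis, circRNA over control plasmid) of each gene with its 95% confidence interval, from edgeR with TMM scaling (black circles) and with length and GC content removed as described (grey squares). CEBPA moves from 0.32 to 0.21 and FOXA3 from 0.22 to 0.13 with the correction, while PROX1 (-1.36 and -1.28) has by far the widest interval.

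A few libraries held most of the extreme values. Control replicate 1 held the highest or the lowest value for 6 of the 8 factors (53.1% of all genes tested). It was highest for HNF4A, NR5A2 and FOXA1, whose longest transcripts have 6445, 5086 and 2862 bases. It was lowest for CEBPA (2631 bases), FOXA3 (1989 bases) and CEBPB (1956 bases). The other 2 did not follow this order. PROX1, the longest (8498 bases), was highest in control replicate 3, and FOXA2 (2422 bases) lay near its mean in control replicate 1 (log2 deviation 0.02). A part of length in these extremes was not tested. circRNA replicate 1 was an extreme for 7 of the 8 (39.3% of all genes tested). It was highest for FOXA2, FOXA3, CEBPA and CEBPB and lowest for HNF4A, NR5A2 and PROX1. In both groups replicate 2 was never an extreme for these genes. Leaving out each library in turn moved CEBPA between 0.19 and 0.44, CEBPB between 0.26 and 0.50, FOXA3 between 0.17 and 0.28, NR5A2 between -0.20 and -0.06, HNF4A between -0.73 and -0.16 and PROX1 between -1.72 and -0.45. None of these fits gave any of the 8 an adjusted p below 0.669.

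**Figure D4:**
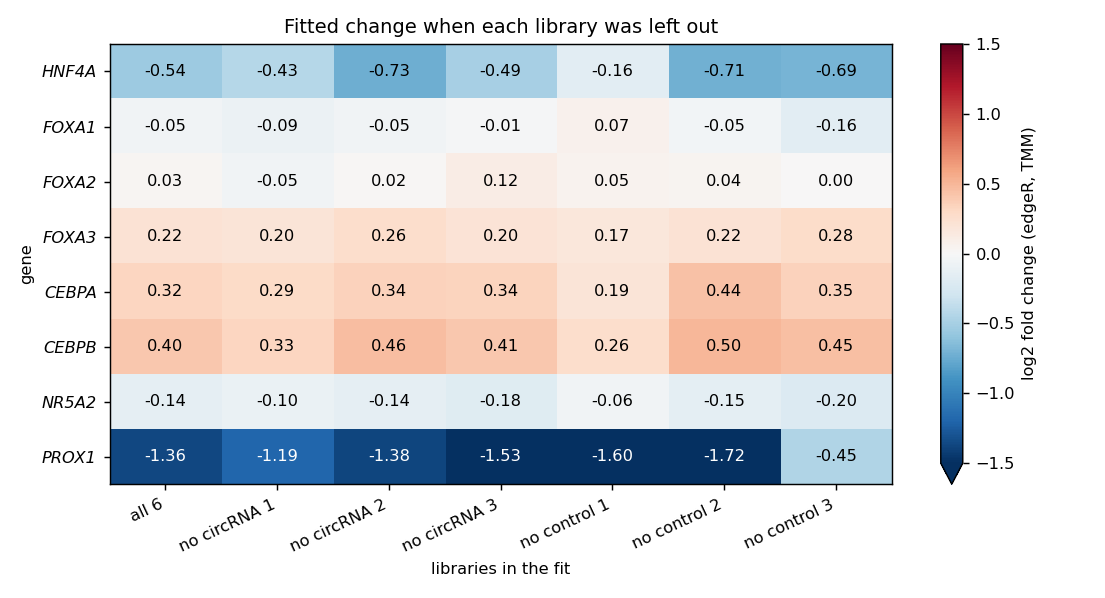
Fitted log2 fold change (colour and printed value, circRNA over control plasmid) of each gene (rows) with all 6 libraries and with each library left out in turn (columns). Leaving out control replicate 1 takes HNF4A from -0.54 to -0.16, and leaving out control replicate 3 takes PROX1 from -1.36 to -0.45.

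RefSeq promoters (GRCh38.p14) were found for 6 of the 8 genes, with FOXA2 and PROX1 not among them. The 120 bases before 9 annotated starts were searched on both strands for short forms of the motifs of these factors. The sequences below are those in which a motif was found, written 5′ to 3′ on the strand of the gene with each match in capitals. TATAAA was found in 3 of the 9 windows, 1 each of CEBPA, CEBPB and FOXA3, 29 or 30 bases before the RefSeq start. It occurs in 5.63% of 35116 promoters.
CEBPA, chr19:33302535-33302654, minus strand: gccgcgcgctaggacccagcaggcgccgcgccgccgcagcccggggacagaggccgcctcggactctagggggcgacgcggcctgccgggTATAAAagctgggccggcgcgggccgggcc
CEBPB, chr20:50190710-50190829, plus strand: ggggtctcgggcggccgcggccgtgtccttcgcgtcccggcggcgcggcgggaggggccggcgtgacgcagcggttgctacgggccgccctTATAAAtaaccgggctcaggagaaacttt
FOXA3, chr19:45864206-45864325, plus strand: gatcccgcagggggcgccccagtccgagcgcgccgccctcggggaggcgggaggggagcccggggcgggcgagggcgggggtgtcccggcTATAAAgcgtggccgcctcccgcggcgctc
The downstream NR5A2 start carries TGTTTAC, a FOXA-type element, on the opposite strand, as do 1.36% of promoters on either strand.
NR5A2, chr1:200042471-200042590, plus strand: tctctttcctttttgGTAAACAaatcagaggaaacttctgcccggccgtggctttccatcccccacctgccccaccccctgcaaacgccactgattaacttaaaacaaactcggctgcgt
CAAAGTCCA (HNF4), TTGCGCAA (C/EBP), AAGGTCA (NR5A2) and CCAAT did not occur in the 9 windows, and occur in 0.19%, 0.07%, 1.58% and 20.44% of promoters. These matches describe the letters only. The gene models of CEBPA, CEBPB, FOXA3 and NR5A2 in GENCODE 29 begin further upstream than the RefSeq starts of the windows shown.

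Other transcription factors of the liver network were examined next, such as ONECUT and GATA factors and further C/EBP and PAR bZIP proteins. Of 26 listed, 23 were tested and none passed the adjusted threshold (edgeR). At an unadjusted p under 0.05, 2 were lower and none higher in edgeR (3.08% and 2.42% of all genes). DESeq2 and limma had 2 each (4.39% and 6.03% of their genes). In all, 12 had a positive and 11 a negative fold change (median 0.005). This direction did not hold, since 9 were positive and 14 negative with length and GC content removed (median -0.044), and the median was -0.099 to -0.014 when 1 library was left out. The most abundant were CEBPG, a C/EBP protein without an activation domain of its own (165 ± 4.06 CPM with the circRNA plasmid, 159.8 ± 18.3 CPM in the controls), ONECUT2 (107 ± 18.7 and 124 ± 12.5 CPM) and HHEX, a homeodomain factor of early liver (115 ± 38.2 and 99.1 ± 18.2 CPM). HNF4G, the paralog of HNF4A, had the largest difference. It was at 9.70, 9.35 and 8.73 CPM in the circRNA libraries and at 31.2, 27.1 and 9.71 CPM in the controls (log2 fold change -1.29 ± 0.37, adjusted p = 0.797, edgeR). Control replicate 3 lay at the circRNA level. Without that library HNF4G was at -1.65 ± 0.14 and passed the threshold (adjusted p = 0.0215, edgeR). Taking out the only control at the circRNA level widens the difference by itself, so that this call adds no support. It was not called with any other library left out. HLF, a PAR bZIP factor, was at -0.46 ± 0.26. CREB3L3, the fasting-responsive factor also called CREBH, was at 42.0 ± 5.29 CPM against 56.3 ± 10.2 CPM (-0.42 ± 0.15).

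Cofactors and regulators, which couple these factors to chromatin or control their stability, leaned to values below 0. Of 20 listed, 19 were tested and none passed the adjusted threshold (edgeR, and the same for DESeq2 and limma). Of the 19, 16 had a negative and 3 a positive fold change, with a median of -0.15. At an unadjusted p under 0.05, 4 were lower and none higher in edgeR (3.08% and 2.42% of all genes), 4 passed in DESeq2 (4.39%) and 2 in limma (6.03%). These 4 were EP300, a histone acetyltransferase (102, 157 and 143 CPM with the circRNA plasmid, 212, 161 and 164 CPM in the controls, log2 fold change -0.42 ± 0.17), NCOA6 (-0.40 ± 0.16), MED1 (-0.36 ± 0.13) and TRIB1 (-0.26 ± 0.11). NCOA6 and MED1 are coactivators of nuclear receptors, and TRIB1 directs C/EBPα to degradation. NCOA3, another nuclear receptor coactivator, was at -0.38 ± 0.17. The most abundant were the corepressor NCOR1 (-0.30 ± 0.15), the coactivator NCOA2 (-0.19 ± 0.11) and the chromatin remodelling ATPase SMARCA4 (-0.15 ± 0.11). These genes are long, with a median longest transcript of 7405 bases against 3344 for all genes tested. Control replicate 1 was the highest library for 12 of the 19 (63.2%, against 26.6% of all genes tested), and circRNA replicate 1 was the lowest for 12 (63.2%, against 20.2%). With length and GC content removed, the median was -0.08, with 14 negative and 5 positive. Without 1 library at a time the median ran from -0.233 to -0.093, and none of the 19 was under an unadjusted p of 0.05 without control replicate 1, without circRNA replicate 1 or with a replicate block, and 1 was without circRNA replicate 3.

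Hepatocyte genes known as targets of these factors, such as those for plasma proteins, apolipoproteins and metabolic enzymes, held 38929 to 40218 CPM in sum with the circRNA plasmid and 36469 to 42895 CPM in the controls. Of 37 listed, 27 were tested and none passed the adjusted threshold in edgeR or limma. DESeq2 called 1, RBP4, beside 0.186% of all genes it gave an adjusted p. F9 and CRP had no counts, and 8 of the list stayed under 1 CPM in all libraries. Of the 27, 19 had a positive and 8 a negative fold change (median 0.058), and 7601 and 7454 of all genes tested did. The median of the list was -0.019 without control replicate 3 and 0.018 to 0.126 without any other library. At an unadjusted p under 0.05, 1 was higher and 2 were lower in edgeR (2.42% and 3.08% of all genes). DESeq2 and limma had 3 each (4.39% and 6.03% of their genes). AFP, the fetal albumin-like protein that hepatomas express, was at 12652 ± 96.7 CPM with the circRNA plasmid and 12149 ± 1252 CPM in the controls. ALB was at 5143 ± 623 and 4811 ± 389 CPM. APOB, the structural protein of very-low-density lipoprotein, was at 6595, 8846 and 9234 CPM against 12939, 10252 and 9127 CPM (log2 fold change -0.39 ± 0.17). RBP4, the plasma carrier of retinol, was at 664, 620.3 and 653 CPM in the circRNA libraries and at 872, 883 and 837 CPM in the controls. All circRNA values lay below all control values, as those of 6.5% of all genes tested did, and none of the libraries stood apart. The log2 fold change was -0.42 ± 0.08 (0.75-fold; adjusted p = 0.506 in edgeR and 0.00886 in DESeq2). APOA2, an apolipoprotein of high-density lipoprotein, stood higher, at 1446 ± 75 against 1219 ± 126 CPM (0.25 ± 0.10). ABCG5, a sterol transporter, was near the detection limit at 0.861 ± 0.113 and 1.17 ± 0.49 CPM.

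**Figure D5:**
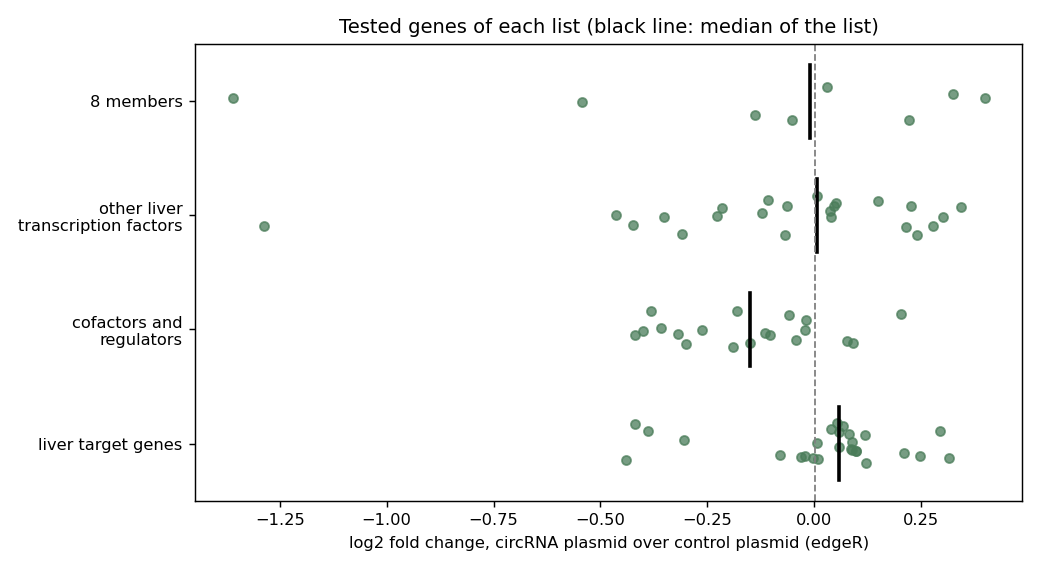
Log2 fold change (horizontal axis, circRNA over control plasmid) of every tested gene in the 8 factors, the other liver transcription factors, the cofactors and regulators and the liver target genes, with black lines at list medians and a dashed line at the median of all genes tested. The medians are -0.011, 0.005, -0.15 and 0.058, and the points below -1 are PROX1 and HNF4G.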

How the data were processed

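Total RNA of 6 Huh7 libraries, 3 per plasmid, was sequenced by the authors, and groups and replicate numbers were read from sample titles. The authors deposited whole-number read counts per gene, not normalized, and FPKM values that divide them by the library total and a gene length. TopHat2 2.0.9 and hg38 are named in the submitters' processing notes, while the counting tool and its use of strand are not given in the sources used here. Coordinates of the 8 genes equalled those of GENCODE 29 (GRCh38).

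Counts of 15055 genes that passed filterByExpr (minimum count 10) were fitted with edgeR 4.0.16 in R 4.3.3 (TMM, glmQLFit and glmQLFTest, group the only term, two-sided, Benjamini-Hochberg). The biological coefficient of variation was 16.1%. Standard errors came from the F statistic. Levels per length used merged GENCODE 29 exons. FOXA shares and the CEBPA to CEBPB ratio were compared by exact permutation. Alternatives were RLE and upper-quartile scaling, DESeq2 1.42.0, other filters, limma 3.58.1 on log2(FPKM + 1), a replicate block, leaving out each library and, chosen after seeing the data, a spline correction for transcript length and GC content (5 degrees of freedom). In counts simulated for this comparison over 15055 genes, edgeR called 66% of 100 genes changed 2-fold, 94% of 100 changed 4-fold and 19 of 14855 unchanged ones. The simulated libraries had no trend with length or GC content. Changes below 2-fold were not simulated, so these rates do not extend to them. Chi-square per degree of freedom between replicates was 10.1 to 20.9, above counting noise.

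The 8 genes, the lists and the rules were chosen with earlier results of these data known. The values of 1 list gene are not reported here, though it is kept in the numbers. Named from each list were the 3 most abundant genes, the 3 with the largest fold change at a mean of at least 1 CPM, and any past the adjusted threshold. The neighbouring transcripts and the 3 genes most correlated with HNF4A were named too. List genes under an unadjusted p of 0.05 outside this rule (MED1, TRIB1, APOA2) were chosen after their values were seen. Library depth limits precision through counting error, and intervals on counts would cover that error only.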

Additional observations from a re-analysis of the deposited data

How the results depend on the processing

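The number of the 8 factors called was 0 in all 14 alternatives. Of 112 alternative fold changes of the 8, 109 kept the sign, and 3 turned it: FOXA1 to 0.0677 without control replicate 1 (-0.163 to 0.0677 over the libraries left out), FOXA2 to -0.0501 without circRNA replicate 1 (-0.0501 to 0.117) and to -0.0332 with the length and GC correction, which was chosen after seeing the data. The adjusted p of the 8 ran from 0.669 to 0.999 over the alternatives. The number of all genes called was 6, against 28 with DESeq2, and 4 to 16 when 1 library was left out (16 without circRNA replicate 2, 10 without circRNA replicate 3). Other liver transcription factors called numbered 0 to 1 when 1 library was left out, the 1 being HNF4G without control replicate 3, and liver target genes called were 1 with DESeq2 (RBP4). No cofactor or regulator was called under any alternative. The FOXA2 share differed by -1.06 percentage points, and by -1.84 to 0.421 when 1 library was left out, the positive value arising without circRNA replicate 3. The causes of these shifts were not tested.

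Deviations of same-numbered libraries from their group means correlated at -0.0357, -0.0231 and -0.0308, so no shared deviation over genes was seen. The labels do not say whether same-numbered samples were paired in culture or handling, and these values cannot show it. With a replicate block, 0 of the 8 factors and 4 genes in all were called, PROX1 was at -1.09 and HNF4A at -0.49, and the FOXA3 share still differed by 3.01 percentage points (p = 0.25, exact sign-flip test, the smallest that 3 pairs allow). The 8 genes held 337 to 4946 counts per library, and spread between 3 libraries exceeded counting error, though by little in some groups. FOXA2 varied by 3.42% in the controls (coefficient of variation), where counting error alone would give 3.15%. FOXA3 varied by 5.36% in the circRNA group, where counting error would give 4.04%. Spread, more than depth, limits the comparisons of genes such as HNF4A and PROX1.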
